A study of Mus musculus with 12 samples.

Results

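The 29 genes described here carry out the synthesis of cholesterol and fatty acids or control it through the SREBP system. They were chosen by name from a fixed list of gene symbols and not by a cut on their values, though earlier results of these data were known. All 29 were found, with 42 array features, among 20738 named genes and 62976 features on 12 microarrays. For each gene the feature with the highest mean signal over all arrays was used.

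RNA came from whole mouse embryonic lungs of strain C57bl/6J, with n = 3 arrays in each of 4 groups. Loss-of-function (LOF) lungs carried Rosa26rtTA and tet(O)solubleR2b, so that doxycycline induced a soluble FGFR2b that captures FGF10 and the other ligands of this epithelial receptor, and they were collected after 6 h or 9 h. Gain-of-function (GOF) lungs carried Rosa26rtTA and tet(O)fgf10 and had doxycycline for 9 h, and the labels give the controls as untreated wild-type lungs. The text of the study differs here: its LOF controls were littermates with Rosa26rtTA alone, their mothers also had doxycycline, and they were taken at either time. It does not describe the GOF lungs. Control and treated lungs may therefore also differ in transactivator, doxycycline and time, which cannot be told apart from the induced transgene. The transactivator was driven by the ubiquitous Rosa26 locus, so induction was not limited to the epithelium. The series counts the 3 arrays of a group as independent replicates, and no label says whether they came from separate litters.

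Cholesterol is built from acetyl-CoA through mevalonate, isoprenoid units and squalene, and fatty acids are built from the same precursor by acetyl-CoA carboxylase and fatty acid synthase, then desaturated and elongated. The SREBP transcription factors drive both arms, SREBP2 mainly the sterol arm and SREBP1 mainly the fatty acid arm, and INSIG proteins hold their precursors in the endoplasmic reticulum when sterols are plentiful. In the mature lung, alveolar type 2 cells use these pathways to make the lipids of surfactant.

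A sterol regulatory element with the letters TCACNCCAC, which SREBP binds, and the CCAAT box bound by its partner NF-Y were searched on both strands of the RefSeq promoter windows (build GRCm38.p6), from 250 bases before to 50 bases after each start. Windows were matched for 22 of the 29 genes, 29 windows in all, and 7 genes had none (Fdps, Fdft1, Sqle, Scd1, Scd2, Fads1 and Fabp5). The exact element was present in 1 of these 29 windows, that of Hmgcs1 at position -137 from the start, and in 1.24% of all 32851 windows. A CCAAT box was present in 20 of 29 windows (69%) and in 37.4% of all windows, and 8 windows (27.6%) held more than 1, against 11.7% of all windows. The 2 motifs share no overlapping letters in the window of Hmgcs1. The windows printed here run 5′ to 3′ on the gene's strand, with matches to either motif on either strand in capitals. They are those of Hmgcs1 (chr13:119690101-119690400, plus strand), which held both motifs, and of Idi1 (chr13:8885356-8885655, plus strand), Sc5d (chr9:42264251-42264550, minus strand) and the upstream start of Me1 (chr9:86695865-86696164, minus strand), whose signals are described further on. No letters of the Me1 window matched.
Hmgcs1: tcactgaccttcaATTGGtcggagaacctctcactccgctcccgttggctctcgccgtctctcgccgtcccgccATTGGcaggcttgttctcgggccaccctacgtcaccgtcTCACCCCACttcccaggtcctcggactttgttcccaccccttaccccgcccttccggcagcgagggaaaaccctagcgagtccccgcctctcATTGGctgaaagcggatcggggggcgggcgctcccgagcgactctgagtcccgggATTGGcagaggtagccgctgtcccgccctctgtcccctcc
Idi1: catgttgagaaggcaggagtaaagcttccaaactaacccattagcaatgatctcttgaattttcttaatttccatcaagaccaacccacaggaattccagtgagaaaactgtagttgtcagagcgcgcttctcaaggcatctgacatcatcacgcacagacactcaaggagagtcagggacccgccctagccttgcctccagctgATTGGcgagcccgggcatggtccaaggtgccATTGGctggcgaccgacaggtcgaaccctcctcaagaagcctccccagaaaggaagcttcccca
Sc5d: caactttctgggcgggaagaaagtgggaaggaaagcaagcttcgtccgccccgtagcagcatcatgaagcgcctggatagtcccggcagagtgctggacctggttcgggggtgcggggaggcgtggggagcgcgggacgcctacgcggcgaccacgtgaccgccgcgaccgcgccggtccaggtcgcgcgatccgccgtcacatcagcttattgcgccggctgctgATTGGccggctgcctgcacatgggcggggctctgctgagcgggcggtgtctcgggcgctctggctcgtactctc
Me1: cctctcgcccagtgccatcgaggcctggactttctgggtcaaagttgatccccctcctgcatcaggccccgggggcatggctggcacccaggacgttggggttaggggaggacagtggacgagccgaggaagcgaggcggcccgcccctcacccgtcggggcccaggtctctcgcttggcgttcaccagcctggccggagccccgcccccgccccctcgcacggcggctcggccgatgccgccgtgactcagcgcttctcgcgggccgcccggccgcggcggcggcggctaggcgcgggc

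Marker genes were looked at first: all 8 lung epithelial and all 8 mesenchymal genes had means above the array median. So did all 6 endothelial, 9 heart, 5 erythroid and 4 neural genes analysed, so passing this level does not tell tissues apart. Each of the 29 genes had a log2 signal above the array median of 2.98 on every array. Their means ran from 4.38 to 12.83, with a median of 8.84. Of the 29, 27 lay above the median gene (5.11), and Srebf1 (4.38) and Insig1 (5.02) lay below it. Signals of different features do not rank transcripts, so levels are compared here only within a gene. The median SD within a group was 0.16 for these genes and 0.26 over all genes. The median standard error of a difference was 0.17, against 0.265 over all genes, which were not matched for signal. For the 3 genes with the highest signal of their feature, Scd2, Fabp5 and Hmgcs1, the group means spanned 0.06, 0.31 and 0.28.

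**Figure D1:**
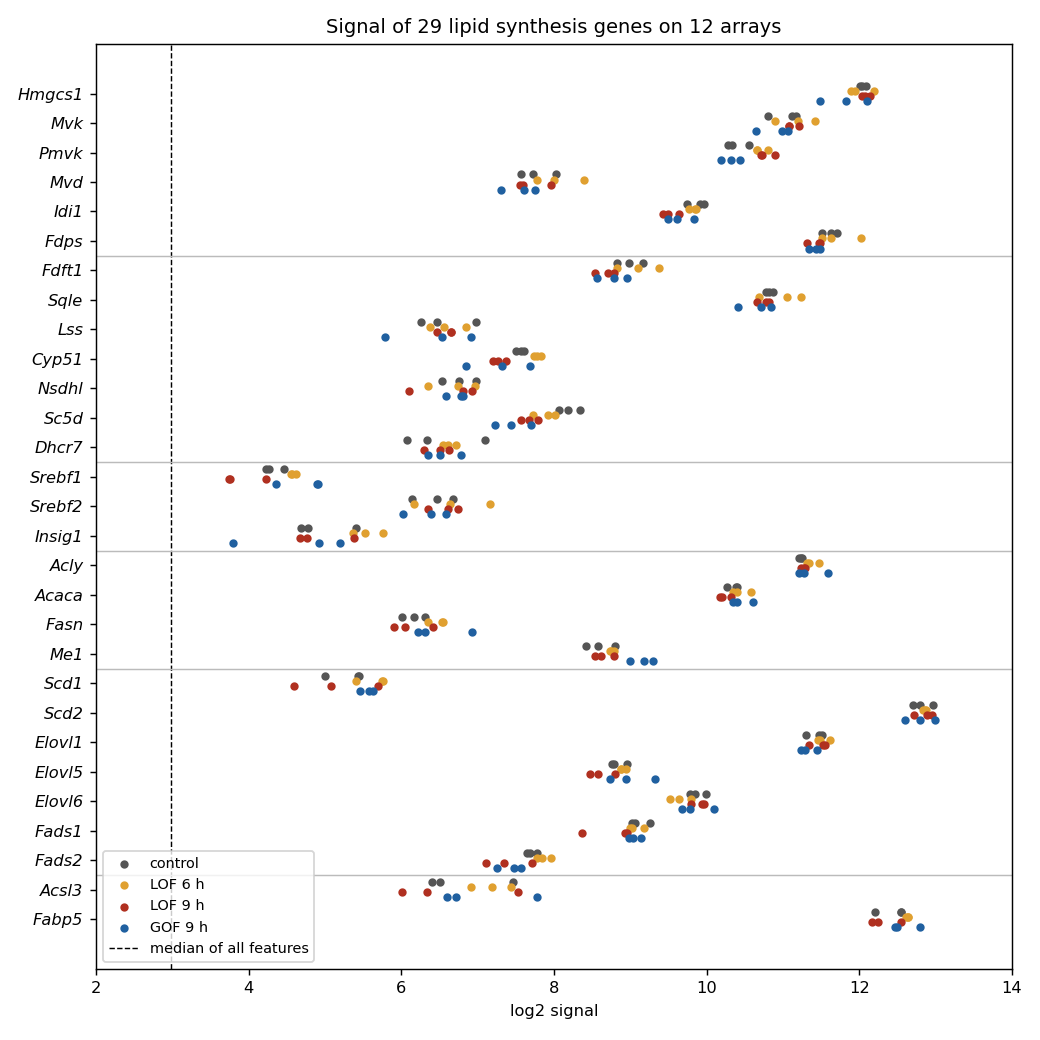
Log2 signal of the 29 genes (rows, ordered by role and separated by lines) on each of 12 arrays; each point is 1 array, coloured by group, and the dashed line is the median of all array features. Rows should be read along a gene, not between genes. Every point lies right of the dashed line at 2.98, and in most rows the 4 colours overlap.

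For Scd2, a desaturase that makes monounsaturated fatty acids, the log2 signals were 12.96, 12.79 and 12.70 in control, 12.83, 12.87 and 12.86 in LOF 6 h, 12.95, 12.71 and 12.89 in LOF 9 h and 12.99, 12.60 and 12.80 in GOF 9 h lungs. The 4 groups overlapped. The signals of Fabp5, a fatty acid binding protein, were 12.55, 12.54 and 12.20 in control, 12.61, 12.64 and 12.64 in LOF 6 h, 12.55, 12.25 and 12.16 in LOF 9 h and 12.79, 12.47 and 12.49 in GOF 9 h lungs. All LOF 6 h arrays lay above all LOF 9 h arrays, by a mean difference of 0.31 ± 0.16 (adjusted p = 0.548). Hmgcs1, which condenses acetyl-CoA units to HMG-CoA, read 12.04, 12.08 and 12.01 in control, 11.89, 12.19 and 11.94 in LOF 6 h, 12.14, 12.03 and 12.07 in LOF 9 h and 11.48, 11.82 and 12.10 in GOF 9 h lungs. Only 1 GOF array reached the range of the control arrays, and the GOF mean differed from control by -0.24 ± 0.16 (adjusted p = 0.966).

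Across 6 comparisons no gene of the list passed the test (limma, Benjamini-Hochberg adjusted p over all genes, threshold 0.05, two-sided). Control was compared with LOF 6 h, LOF 9 h, GOF 9 h and the 6 LOF arrays as a whole, the LOF times with each other, and GOF with LOF lungs at 9 h. The comparisons with control share their control arrays and were not set against each other. Of all genes, 0.0723% passed at LOF 6 h and again at LOF 9 h against control, 0% in GOF 9 h against control, 0.0627% between the LOF times, 0.28% between GOF and LOF 9 h and 0.0482% for both LOF times against control. At an unadjusted p under 0.05, 1 of 29 genes was reached at LOF 6 h (background 9.36% of all genes), 4 at LOF 9 h (background 7.92%) and 2 in GOF lungs (background 5.15%) against control. The count was 5 between the LOF times (background 10.2%), 4 between GOF and LOF 9 h lungs (background 11.9%) and 2 for the LOF times pooled (background 8.27%). Genes whose arrays did not overlap between groups numbered 7 higher and 1 lower at LOF 6 h (background 8.91% and 7.51%), 1 higher and 7 lower at LOF 9 h (7.61% and 7.84%) and 2 higher and 3 lower in GOF lungs (4.78% and 4.64%) against control. They numbered 0 higher and 11 lower between the LOF times (7.95% and 9.66%), 4 higher and 2 lower between GOF and LOF 9 h lungs (9.26% and 8.55%) and 1 each way for the LOF times pooled (2.48% and 2.14%).

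The intervals set a bound on the change in whole-lung RNA that these arrays could have missed. A larger change limited to some cells of the lung, such as the epithelium, is not bounded by them. The 95% interval of the difference, not adjusted for the number of genes, stayed within a 2-fold change for 27 of 29 genes at LOF 6 h, 28 at LOF 9 h and 26 in GOF lungs against control, where 61.2%, 62.8% and 63.4% of all genes did. It did so for 25 genes between the LOF times and 26 between GOF and LOF 9 h lungs (61.4% and 60.7% of all genes), and for all 29 with the LOF times pooled (72.5%). Of the 29, 27 were brighter than the median gene, and these shares of all genes were not matched for signal. Acsl3, which activates fatty acids with coenzyme A, was outside in all 5 pairwise comparisons, with within-group SDs from 0.26 to 0.80. Insig1 was outside in all but LOF 9 h against control, Srebf1 between LOF 9 h and each of LOF 6 h and GOF lungs, Scd1 between the LOF times and Sc5d in GOF lungs. Fewer intervals stayed within a 1.5-fold change, 16, 15 and 15 for LOF 6 h, LOF 9 h and GOF lungs against control.

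**Figure D2:**
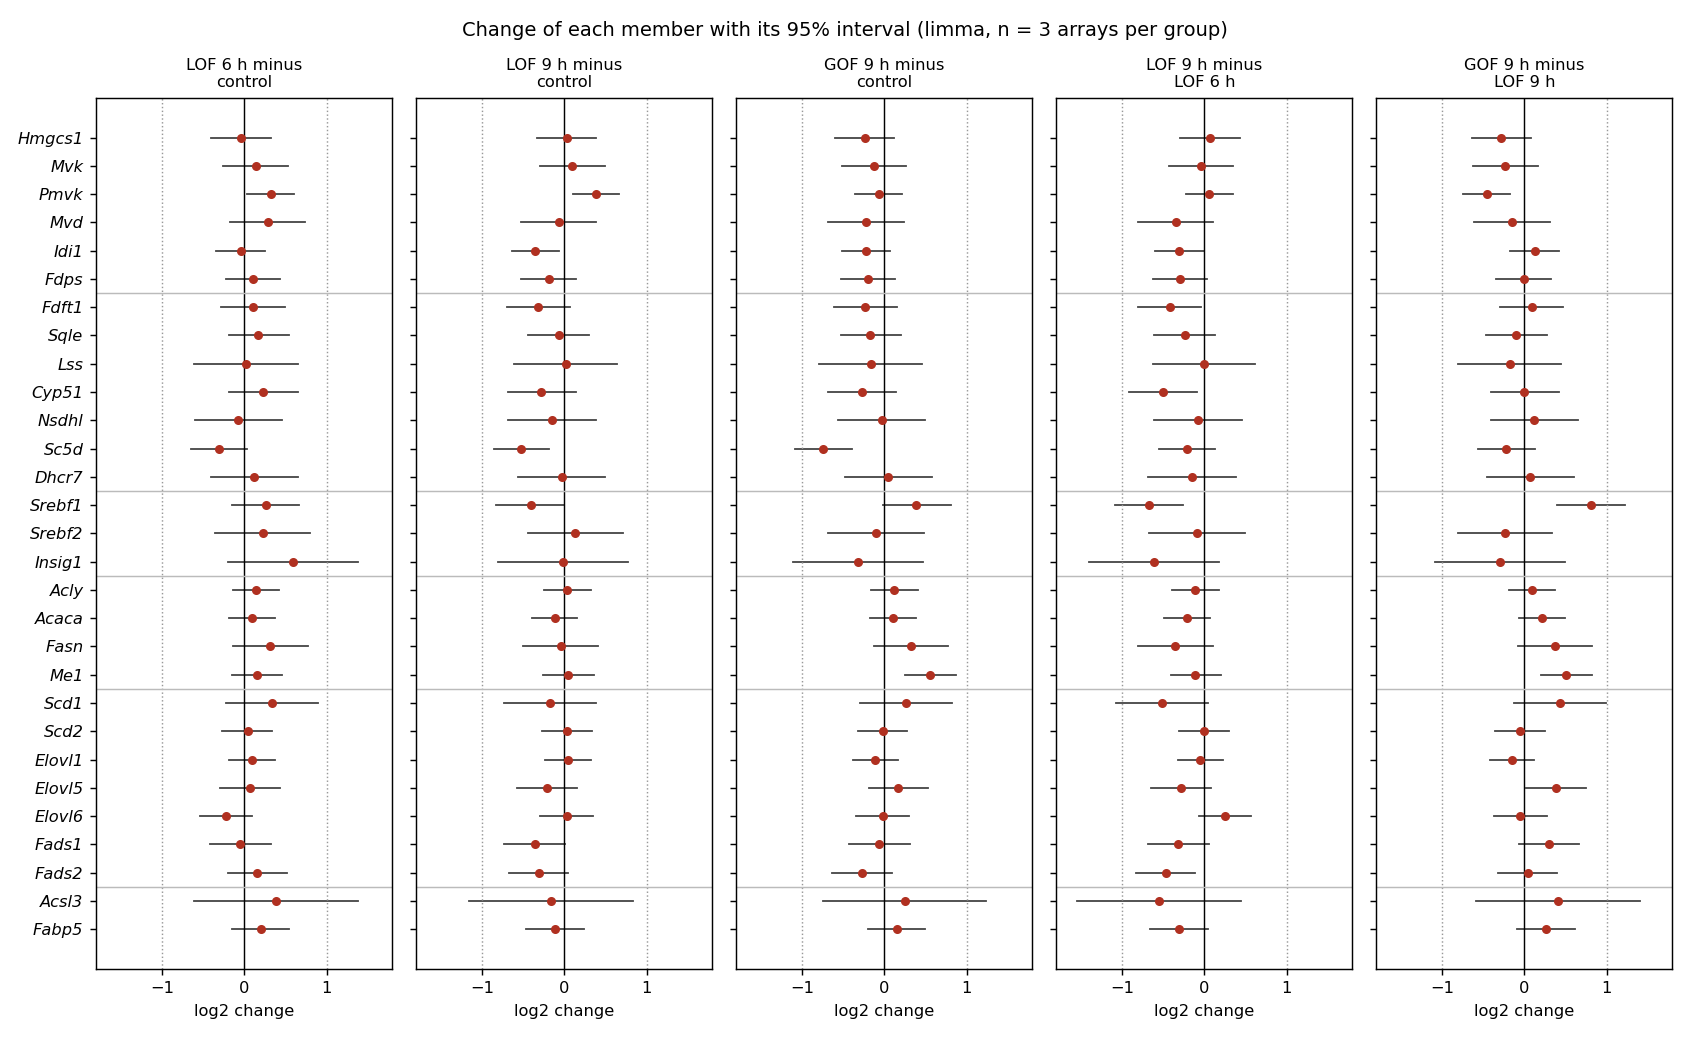
Log2 change of each of the 29 genes (points) with its 95% interval (lines) in 5 comparisons, from limma with n = 3 arrays per group; dotted lines mark a 2-fold change. Most intervals lie within the dotted lines and include 0, and in the comparison of LOF 9 h with LOF 6 h 26 of 29 points lie left of 0.

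The early enzymes of the sterol arm, which make mevalonate and its isoprenoid products, did not share a direction in the LOF lungs. Pmvk (gene 68603), the phosphomevalonate kinase, read 10.28, 10.55 and 10.33 in control, 10.66, 10.80 and 10.66 in LOF 6 h, 10.89, 10.71 and 10.72 in LOF 9 h and 10.19, 10.44 and 10.32 in GOF 9 h lungs. All 6 LOF arrays lay above all control and all GOF arrays, and control and GOF overlapped. The difference from control was 0.32 ± 0.13 at LOF 6 h (adjusted p = 0.475), 0.39 ± 0.13 at LOF 9 h (adjusted p = 0.466) and 0.35 ± 0.11 over both times (adjusted p = 0.435). GOF lungs differed from LOF 9 h lungs by -0.46 ± 0.13 (adjusted p = 0.179). This difference passed with trend and robust settings of limma (adjusted p = 0.0203) and among genes at or above the 50th percentile of signal (adjusted p = 0.0423). Under these settings 500 and 452 genes passed in all, against 58 in the main fit. Both features of Pmvk gave like values, 0.39 and 0.33 at LOF 9 h and -0.46 and -0.37 between GOF and LOF 9 h lungs.

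Idi1 (319554), the isomerase of the isoprenoid units whose window is printed above, read 9.91, 9.96 and 9.74 in control, 9.86, 9.77 and 9.84 in LOF 6 h, 9.64, 9.43 and 9.49 in LOF 9 h and 9.49, 9.61 and 9.83 in GOF 9 h lungs. The LOF 9 h arrays lay below all control and all LOF 6 h arrays and overlapped with GOF. Its differences were -0.35 ± 0.13 from control (adjusted p = 0.522) and -0.31 ± 0.13 from LOF 6 h (adjusted p = 0.474). Mvk, the mevalonate kinase, Mvd, the diphosphomevalonate decarboxylase, and Fdps, the farnesyl diphosphate synthase, stood between -0.19 and 0.29 from control in the LOF lungs. In GOF lungs all 6 genes of this step lay below control, from -0.24 to -0.07, and none passed.

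From squalene to cholesterol the gene farthest from control was Sc5d (235293), a desaturase near the end of the pathway. Its signals were 8.18, 8.07 and 8.34 in control, 7.92, 8.01 and 7.72 in LOF 6 h, 7.79, 7.57 and 7.67 in LOF 9 h and 7.23, 7.44 and 7.70 in GOF 9 h lungs. All 9 treated arrays lay below all 3 control arrays, in lungs with blocked receptor and in lungs with inducible Fgf10 alike. The differences from control were -0.31 ± 0.15 at LOF 6 h (adjusted p = 0.585), -0.52 ± 0.15 at LOF 9 h (adjusted p = 0.385) and -0.74 ± 0.15 in GOF lungs (adjusted p = 0.509), and none passed. GOF and LOF 9 h lungs differed by -0.22, with an interval from -0.56 to 0.13. All treated lungs also had doxycycline and Rosa26rtTA by their labels, and these shared features cannot be told apart from the transgenes.

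Cyp51, the lanosterol demethylase, read 7.60, 7.50 and 7.56 in control, 7.83, 7.74 and 7.78 in LOF 6 h, 7.27, 7.20 and 7.37 in LOF 9 h and 6.84, 7.32 and 7.69 in GOF 9 h lungs. Control, LOF 6 h and LOF 9 h arrays did not overlap, with the order LOF 6 h, control, LOF 9 h, while the GOF arrays ran from below LOF 9 h to above control. The step from LOF 6 h to LOF 9 h was -0.50 ± 0.19 (adjusted p = 0.401). Fdft1, the squalene synthase, read 9.17, 8.98 and 8.83 in control, 8.83, 9.37 and 9.10 in LOF 6 h, 8.53, 8.78 and 8.71 in LOF 9 h and 8.56, 8.95 and 8.79 in GOF 9 h lungs. The LOF 9 h arrays lay below those of LOF 6 h and control, at -0.42 ± 0.17 from LOF 6 h (adjusted p = 0.450), but a second feature of Fdft1 with a mean of 2.44, below the array median, stood at 0.98 in the same comparison. Sqle, the squalene epoxidase, Lss, the lanosterol synthase, Nsdhl, which removes the methyl groups, and Dhcr7, the last reductase, lay between -0.15 and 0.17 from control at both LOF times. A second feature of Nsdhl with a mean of 3.17 stood at 0.59 at LOF 6 h and 0.31 at LOF 9 h.

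Among the regulators the group means spanned 0.81 for Srebf1, 0.91 for Insig1 and 0.33 for Srebf2. Srebf1 (20787), which encodes SREBP1, read 4.46, 4.23 and 4.27 in control, 4.55, 4.57 and 4.62 in LOF 6 h, 3.74, 4.22 and 3.76 in LOF 9 h and 4.91, 4.35 and 4.89 in GOF 9 h lungs. LOF 9 h arrays lay below those of the other 3 groups, LOF 6 h arrays lay above control, and GOF arrays overlapped with both control and LOF 6 h. The difference was -0.41 ± 0.19 between LOF 9 h and control (adjusted p = 0.631), -0.67 ± 0.19 between the LOF times (adjusted p = 0.251) and 0.81 ± 0.19 between GOF and LOF 9 h lungs (adjusted p = 0.108), the smallest adjusted p of the list. A single feature measured Srebf1, and it does not tell its isoforms apart.

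Insig1, which restrains SREBP, read 4.78, 5.41 and 4.68 in control, 5.52, 5.76 and 5.36 in LOF 6 h, 4.67, 5.38 and 4.76 in LOF 9 h and 3.79, 5.20 and 4.92 in GOF 9 h lungs. Its LOF 6 h mean stood 0.59 above control with an interval from -0.20 to 1.38, an interval that reached from below 0 to past a 2-fold change. Srebf2, which encodes SREBP2, stood at 0.23 at LOF 6 h, 0.13 at LOF 9 h and -0.10 in GOF lungs from control, with array values from 6.02 to 7.16 over the 4 groups. A second feature of Srebf2 with a mean of 3.2 stood at 0, -0.76 and -0.22.

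In fatty acid synthesis all 4 genes lay above control in GOF lungs, from 0.11 to 0.56, and none passed. Me1 (17436), the malic enzyme that supplies NADPH, read 8.58, 8.80 and 8.42 in control, 8.74, 8.73 and 8.78 in LOF 6 h, 8.78, 8.62 and 8.54 in LOF 9 h and 9.29, 9.00 and 9.18 in GOF 9 h lungs. The 3 GOF arrays lay above the other 9, which overlapped. The differences were 0.56 ± 0.14 from control (adjusted p = 0.657) and 0.51 ± 0.14 from LOF 9 h (adjusted p = 0.164). The latter was past the threshold among genes at or above the 50th percentile of signal (adjusted p = 0.0399), where 452 genes passed in all, against 58 in the main fit. Its 3 features did not give the same size: against control they stood at 0.56, 0.37 and 0.02, and as the mean of all features at 0.31.

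Fasn, the fatty acid synthase, read 6.16, 6.31 and 6.01 in control, 6.53, 6.35 and 6.54 in LOF 6 h, 6.41, 6.05 and 5.90 in LOF 9 h and 6.92, 6.22 and 6.31 in GOF 9 h lungs. LOF 6 h lay above control at 0.31 ± 0.20 (adjusted p = 0.686), and in GOF lungs a single array was high. Acly, which makes cytosolic acetyl-CoA from citrate, and Acaca, acetyl-CoA carboxylase, lay between -0.11 and 0.14 from control in all 3 treated groups. Dimmer features differed: that of Acly (mean 3.92) stood at -0.41 at LOF 9 h, and an Acaca feature (mean 4.05) at 0.35 and 0.30 at the LOF times.

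Among desaturases and elongases, Fads2, which starts polyunsaturated fatty acid synthesis, read 7.65, 7.77 and 7.69 in control, 7.84, 7.96 and 7.78 in LOF 6 h, 7.11, 7.71 and 7.35 in LOF 9 h and 7.48, 7.25 and 7.56 in GOF 9 h lungs. LOF 6 h lay above the other 3 groups and GOF below control, and the step from LOF 6 h to LOF 9 h was -0.47 ± 0.16 (adjusted p = 0.367). Fads1, the partner desaturase, stood at -0.36 ± 0.17 from control at LOF 9 h (adjusted p = 0.642). Its LOF 9 h arrays, at 8.37, 8.95 and 8.93, all lay below those of the other 3 groups, and the array of 8.37 set the SD of 0.33. Scd1, a second monounsaturating desaturase, had LOF 9 h values of 4.59, 5.69 and 5.08 that spanned its control values, of which the highest was 5.45. The elongases Elovl1, Elovl5 and Elovl6 differed from control by -0.22 to 0.17 in the treated groups, and Elovl5 stood 0.38 ± 0.16 above LOF 9 h in GOF lungs (adjusted p = 0.387), with groups that overlapped.

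**Figure D3:**
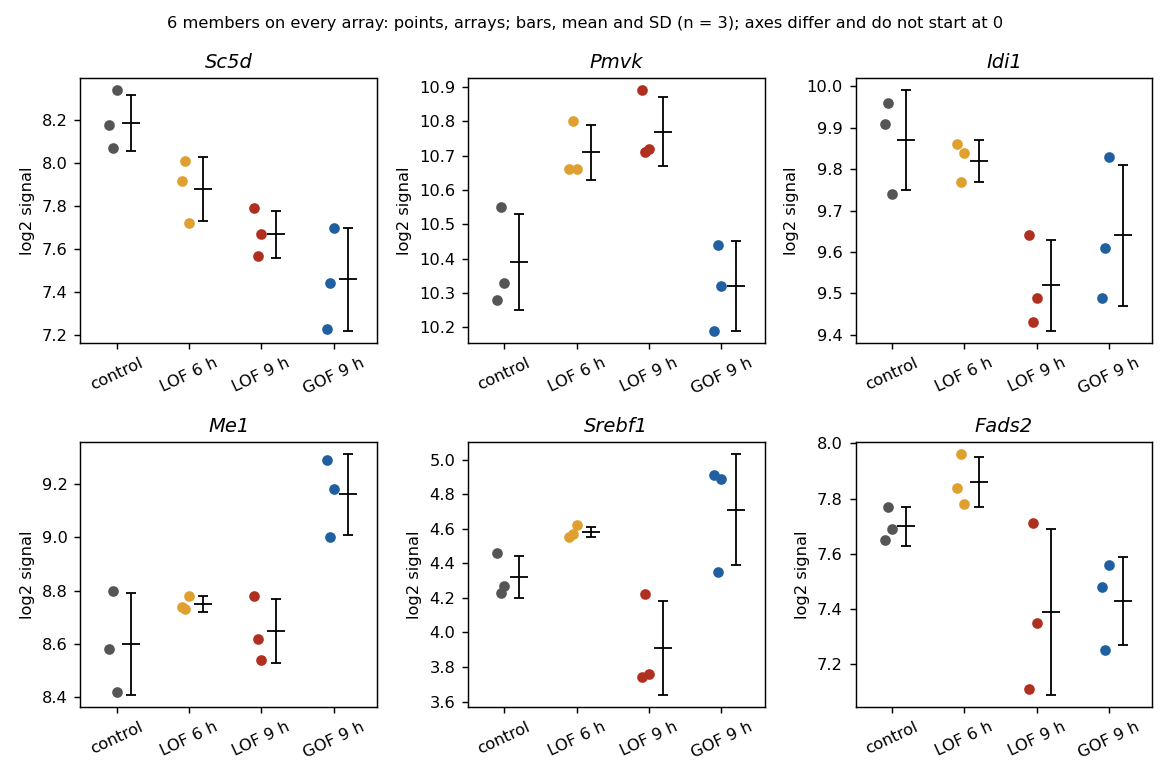
Log2 signal of Sc5d, Pmvk, Idi1, Me1, Srebf1 and Fads2 on every array (points, coloured by group) with the group mean and SD (black bars, n = 3 arrays). The vertical axes differ between panels and do not start at 0. Sc5d is below control in all treated arrays, Pmvk is higher in the 6 LOF arrays than elsewhere, and Me1 is highest in the 3 GOF arrays.

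Read as a list, the genes stood slightly above control at LOF 6 h and lower again at LOF 9 h. At LOF 6 h 23 of 29 were above 0 with a median of 0.14, where 53.5% of all genes were above 0 with a median of 0.02, and at LOF 9 h 19 were below 0 with a median of -0.07 (50% of all genes, median 0). Between the LOF times 26 of 29 lay below 0 with a median of -0.24, where 53.9% of all genes lay below 0 with a median of -0.03. Among the genes above the median signal 55.7% lay below 0, also with a median of -0.03. The 3 genes above 0 in this comparison were Elovl6 at 0.25, Hmgcs1 at 0.07 and Pmvk at 0.06. These are counts of genes from the same 6 arrays, which are not independent.

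Both values that involve LOF 6 h were smaller without its array 2, which had the highest signal of its group in 18 of 29 genes (62.1%, where it was highest in 33.8% of all genes). A high array 2 was not particular to LOF 6 h. In control array 2 was highest in 17 of 29 genes (58.6%, and 36.8% of all genes), at LOF 9 h in 10 and in GOF lungs in 6 (34.9% and 32.5% of all genes). Without array 2 of LOF 6 h, 19 of 29 genes were above control at LOF 6 h, with a median of 0.08. Between the LOF times 21 of 29 then lay below 0 with a median of -0.16, and with each array centred on its features that carry a gene symbol, an alternative chosen after seeing the data, 22 did with a median of -0.17, where 44.5% of all genes lay below 0. Markers of some other cell types were also lower in this comparison and those of others higher, with 0 calls in any marker list. The 9 heart genes averaged 7.45 to 8.27 on the LOF 6 h arrays, 6.57 to 7.40 at LOF 9 h and 6.33 to 7.39 in control, with 8 of 9 lower at LOF 9 h than at LOF 6 h, and the 5 erythroid genes averaged 10.98 to 11.33, 10.30 to 10.35 and 9.72 to 10.97, with 5 of 5 lower. All 6 macrophage and all 4 neural genes were lower as well, and 5 of 7 distal tip genes. Endothelial genes were higher in 5 of 6 (median 0.24) and mesenchymal genes in 6 of 8 (median 0.12), and the 8 general epithelial genes averaged 9.88 to 10.01 at LOF 6 h and 9.96 to 10.06 at LOF 9 h. The part of these cells in the result was not tested, and in whole lungs fewer cells of a type and less RNA per cell cannot be told apart. Liver genes, checked because the liver makes much lipid, averaged 3.29 to 4.14 on the LOF 6 h and 3.26 to 3.42 on the LOF 9 h arrays. They averaged 3.47 to 4.16 in control and 3.41 to 4.14 in GOF lungs. The means of Apoa1, Ttr, Fgb and Ahsg lay below the array median and those of Alb, Afp, Apoa2 and Serpina1a above it. Afp read 5.28, 6.81 and 4.43 in control and 8.32, 7.04 and 6.97 in GOF lungs, where 6 of the 8 liver genes lay below control.

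**Figure D4:**
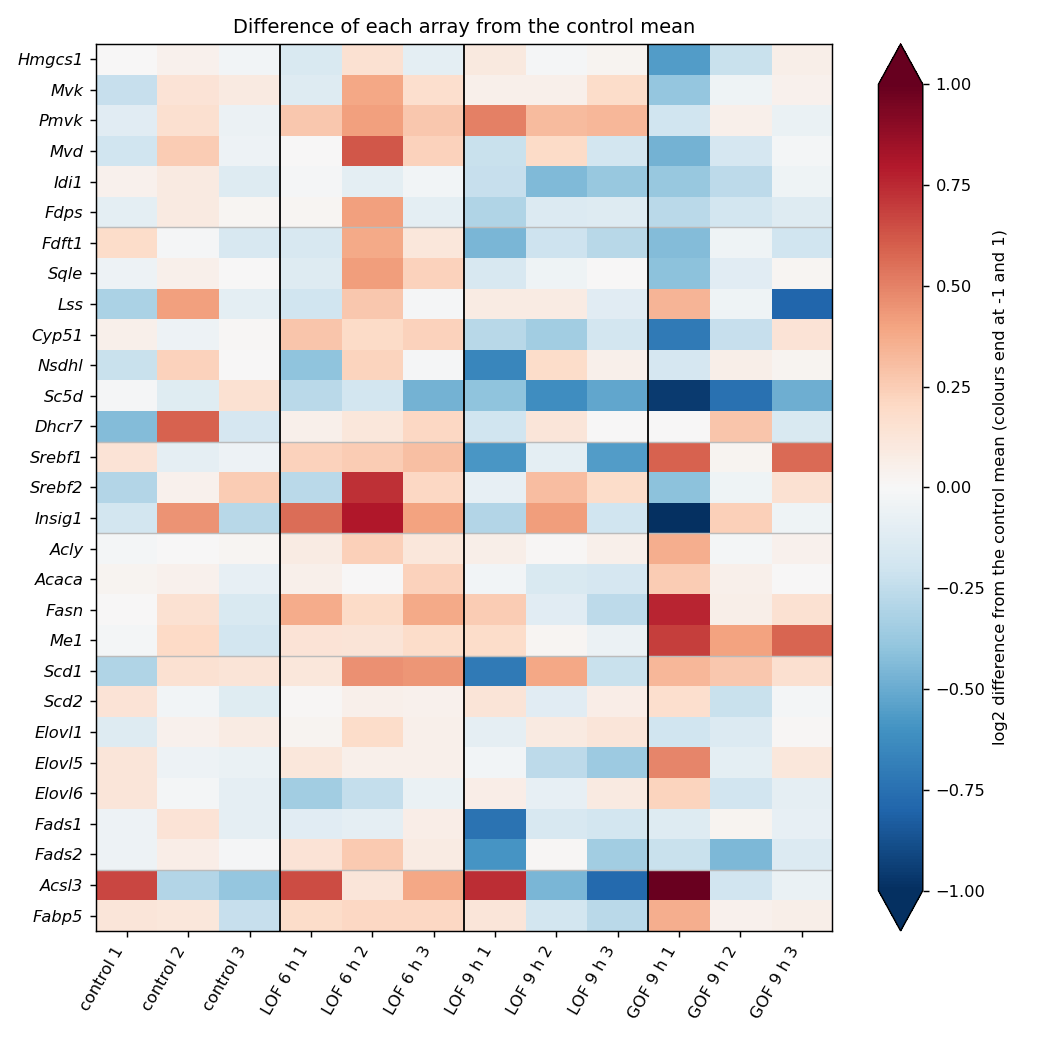
Log2 difference of each array (columns) from the mean of the 3 control arrays for each of the 29 genes (rows, separated by role); red is higher, blue is lower, and colours end at -1 and 1. LOF 6 h columns are mostly red, Sc5d is blue in all 9 treated columns, and GOF 9 h array 1 is blue in many sterol genes and red in many fatty acid genes.

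In GOF lungs the sterol genes lay mostly below control and the 4 fatty acid synthesis genes above it, farthest on array 1, and no test of a difference between these groups of genes was run. Over the 3 GOF arrays the mean difference from control of the 6 mevalonate genes was -0.38, -0.14 and -0.03 on arrays 1, 2 and 3, and that of the 7 later sterol genes -0.34, -0.12 and -0.21. For the 4 genes of fatty acid synthesis it was 0.52, 0.12 and 0.19. The 7 desaturation and elongation genes did not share this, at 0.10, -0.11 and -0.01 with 5 of 7 below control (median -0.02), and Acsl3 and Fabp5 together stood at 0.68, -0.08 and -0.01. The mean of the distal tip markers was also highest on array 1, at 0.58, -0.01 and 0.12 from control. Not all of them shared this: Sftpc was lowest on array 1 (9.97, 11.10 and 10.88) and Etv5 highest on array 3 (12.61, 12.55 and 12.98). The 9 heart genes averaged -0.97, -1.08 and -0.22 from control, with 6 below and 3 above it in GOF lungs. The part of these markers in the values of the list was not tested. GOF array 1 had the lowest signal of its group in 11 of 13 sterol synthesis genes (84.6%, and 38.7% of all genes). It had the highest in 10 of 13 fatty acid genes (76.9%, and 32.2% of all genes). A low array 1 was not particular to GOF lungs for the sterol synthesis genes. Array 1 was lowest in 8 of 13 in control, 9 at LOF 6 h and 7 at LOF 9 h (38.4%, 34.9% and 39.3% of all genes). It was highest there in 5, 2 and 8 of 13 fatty acid genes (31%, 33.5% and 34.3% of all genes). Insig1 was at 3.79 on GOF array 1, the lowest of all 12, and Acsl3 at 7.78, the highest. Acsl3 was also highest on array 1 in control, LOF 6 h and LOF 9 h, at 7.46, 7.44 and 7.53. As a whole the list had 19 genes below and 10 above control in GOF lungs, with a median of -0.07, where 49.6% of all genes lay below. Against LOF 9 h lungs 16 genes were above 0 (50.2% of all genes), and 16 were above 0 for the LOF times pooled against control (52%), each with a median of 0.04.

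**Figure D5:**
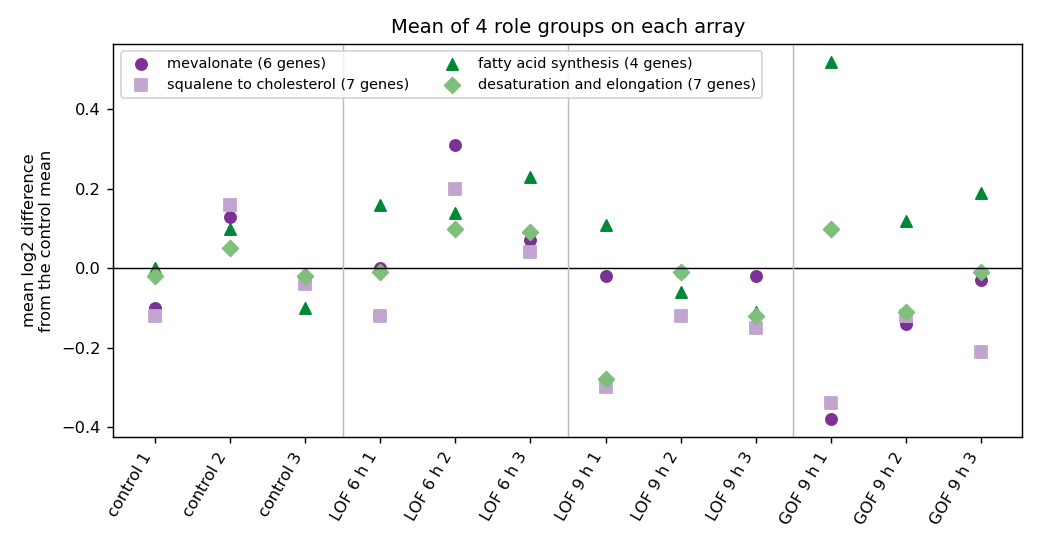
Mean log2 difference from the control mean on each array for 4 role groups of the genes (colours and shapes). On GOF 9 h array 1 the fatty acid synthesis genes lie at 0.52 and the mevalonate genes at -0.38, while on LOF 6 h array 2 the mevalonate genes reach 0.31.

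Beyond the 29 genes, further genes of lipid metabolism gave 0 calls in every comparison. Of other sterol synthesis and uptake genes, 7 of 12 listed genes were analysed here, with medians of 0.03, -0.14 and -0.20 from control in LOF 6 h, LOF 9 h and GOF lungs, and all 7 had values of 0 or below in GOF lungs. The 5 analysed genes of SREBP processing had medians of 0.03, -0.02 and -0.04. Of 15 other genes of fatty acid synthesis and elongation, 8 lay above control at LOF 6 h, 12 below it at LOF 9 h and 9 below it in GOF lungs. The medians of these 15 genes were 0.01, -0.17 and -0.03. Among them Elovl7 stood at -0.60 ± 0.17 at LOF 6 h (adjusted p = 0.295) and 0.57 ± 0.17 higher at LOF 9 h than at LOF 6 h (adjusted p = 0.290), opposite to Elovl4, which stood at -0.64 ± 0.17 between those times (adjusted p = 0.236). Mcat, of mitochondrial fatty acid synthesis, stood at 0.35 ± 0.12 at LOF 6 h (adjusted p = 0.414), and Hacd2, a dehydratase of the elongation cycle, at -0.34 ± 0.12 at LOF 9 h (adjusted p = 0.479).

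Genes that carry sterols out of cells or respond to them through LXR had medians of 0, 0.12 and -0.12 from control over 9 genes, and 9 genes of fatty acid oxidation had medians of 0.12, 0.08 and -0.12. Npc2, a lysosomal sterol carrier, stood at 0.34 ± 0.13 at LOF 6 h (adjusted p = 0.456), Npc1, its partner, at -0.63 ± 0.25 between GOF and LOF 9 h lungs (adjusted p = 0.352), and Acadvl, which oxidises long chains, at -0.33 ± 0.13 there (adjusted p = 0.343). For comparison of scale, the 7 genes of the distal tip epithelium averaged 9.73 to 9.89 in control, 8.86 to 8.88 at LOF 6 h and 8.31 to 8.44 at LOF 9 h, without overlap.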

How the data were processed

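Signals were measured on 12 one-colour Cy3 arrays, 3 per group. As its methods state, the authors subtracted background by NormExp from the mean signal of each spot, using negative control spots, and quantile-normalized the logarithms. The table as deposited holds these log2 values, 62976 features per array, with 10 values missing. The log base was not stated and was read as 2 from the range.  The labels do not tie arrays to slides, so no batch could be tested.

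Features were named by platform accession and symbol (31465 with a symbol), and the brightest feature stood for each of 20738 genes. One linear model with a mean per group covered the 12 arrays (limma 3.58.1, R 4.3.3, 8 residual and 2.27 prior degrees of freedom), without a filter on dim genes, and p-values were adjusted by Benjamini-Hochberg over all genes. Standard errors and 95% intervals come from this fit. Precision is limited by having 3 arrays per group. The fit was tested on simulated data with independent noise for each gene and array. Such data cannot show how the fit handles patterns that genes of an array share.

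The 29 genes, the further lists (135 of 145 entries analysed) and the tests were chosen with earlier results of these data known. Values on every array are given for the 3 genes with the highest signal and those with an unadjusted p under 0.05 and no overlap in a comparison. Of other lists, up to 3 genes per comparison with the smallest p were eligible to be named. Fabp5, Insig1, Fasn, Scd1, Elovl5 and Fads1 were described further after their values were seen. Alternatives were median centring, the mean of all features, filters at the 25th and 50th percentile, trend and robust settings, array weights, only the groups compared, the replicate number as a block and leaving out each array. Cyclic loess and centring on features with a symbol were added after seeing the data.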

Additional observations from a re-analysis of the deposited data

How the results depend on the processing

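The number of genes of the list that passed was 0 in all 6 comparisons whichever of the 12 arrays was left out. It was also 0 under the 10 other settings, except between GOF and LOF 9 h lungs, where 2 passed among genes at or above the 50th percentile (Me1 and Pmvk) and 1 with trend and robust settings (Pmvk). Calls rose over the whole array under these settings, to 452 and 500 genes from 58 in the main fit, so the rise was not particular to the list. With arrays left out, the median change ranged from 0.08 to 0.20 at LOF 6 h, -0.12 to -0.02 at LOF 9 h, -0.14 to -0.03 in GOF lungs and -0.03 to 0.05 for both LOF times against control, from -0.29 to -0.16 between the LOF times and from -0.02 to 0.08 between GOF and LOF 9 h lungs. Between the LOF times it was -0.17 when arrays were centred on features with a gene symbol. The change of Fdft1 between the LOF times turned to 0.28 as the mean of its 2 features, of which 1 lies below the array median. Of the other changes of single genes recomputed, 338 kept their sign and side of the threshold and 3 passed it only under an alternative, those of Me1 and Pmvk above, while all 420 with an array left out kept both. Without control array 1 the GOF median was -0.14, and without control array 3 that of the pooled LOF times was -0.03.

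Over all genes, arrays with the same replicate number shared little: the 18 correlations of their deviations lay between 0 and 0.10. Among the 13 sterol synthesis genes, array 1 was most often the lowest array in each of the 4 groups. It was lowest in 8 genes in control, 9 at LOF 6 h, 7 at LOF 9 h and 11 in GOF lungs. Over all genes array 1 was lowest in 38.4%, 34.9%, 39.3% and 38.7%. With the replicate number as a block, 0 genes of the list passed in each comparison, the lowest adjusted p was 0.169, and the genes passing over the whole array went from 15 to 6 at LOF 6 h and from 58 to 22 between GOF and LOF 9 h lungs.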
